A study of Mus musculus with 9 samples.

Results

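The genes described here are 34 integrin chains and other adhesion molecules, the set of surface receptors by which a cell holds on to matrix and to other cells. The list holds 24 integrin chains and 10 other adhesion genes. A probe set, a group of short probes against 1 transcript, was taken for a gene where the platform annotation gave it that single symbol, and where a gene had several, the brightest on average over the 9 arrays was used. Of the 34 genes 33 had such a probe set, with 77 probe sets in all, out of 18193 genes on the array. Of these 33 genes 27 lay above the low-signal limit and were tested among 12586 genes, 18 of them integrin chains. Messenger RNA came from dendritic cells grown from mouse bone marrow with the growth factor GM-CSF for 9 to 12 days, all of the 129/SvEv background. The groups were wild-type cells left unstimulated in media, wild-type cells that received purified tumor-cell DNA, and STING knockout cells that received it, with 3 arrays in each. The DNA was carried in by a lipid reagent and acted for 7 h. STING is the adaptor that passes on the detection of DNA in the cytosol. The comparisons ask which adhesion transcripts differ after DNA and whether they differ when STING is missing. Unstimulated knockout cells and cells with the lipid reagent but no DNA were not analysed here, and the reagent's own effect cannot be told apart from that of the DNA. The labels do not state whether the arrays of a group were separate mice or cultures, so a p-value here reflects how these arrays vary and no more, and that variation may be technical.

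An integrin is a pair of an alpha and a beta chain, and the pairing decides what it binds. Alpha L, alpha M, alpha X and alpha D join beta 2 on leukocytes and bind ICAM proteins and complement fragments, while alpha 4 joins beta 1 or beta 7 and binds VCAM-1, fibronectin or MAdCAM-1. Alpha 5, alpha 8, alpha V and alpha IIb recognise the RGD tripeptide or related sites in fibronectin, vitronectin, fibrinogen and latent TGF-beta, and alpha 1, alpha 2, alpha 3 and alpha 6 bind collagen or laminin. In dendritic cells these receptors serve migration out of tissue and contact with T cells, and alpha X (CD11c) is the usual marker of the cell type.

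Values are MAS5 signals, the linear intensities deposited for each array, named below by their number 1, 2 or 3 in the titles. Differences are log2 differences of signal + 16 with the standard error (SE) of limma's fit over 3 arrays a group, and this scale understates the change of dim genes. A gene was called when limma's Benjamini-Hochberg adjusted p, taken over all 12586 genes, was below 0.05. Sting1 read 1524, 1081 and 646 in media, 2258, 1061 and 1158 in wild type with DNA and 246, 336 and 327 in the knockout, so the knockout arrays were lower than every wild-type array. Median signals of the 9 arrays were 53.7 to 70.9, and 3' to 5' ratios were 0.80 to 0.899 (Gapdh) and 1.04 to 1.14 (actin). The signal of BioB, a control RNA added in the laboratory, was 350 to 465 for number 1 and 112 to 170 for numbers 2 and 3, and each number holds 1 array of every group. Of 10 dendritic cell markers 9 were above the limit and Flt3 was not, while all 8 macrophage markers were above it. The median gene moved by -0.20 with DNA and by 0.20 between knockout and wild type under DNA. When each array was centred on the median of the genes tested, a setting chosen after seeing the data, the median gene moved by 0.24 and -0.20, and the split of called genes turned from 1251 higher and 2973 lower with DNA to 2759 and 1080. For knockout against wild type it turned from 2746 higher and 1224 lower to 1092 and 2492. In bulk RNA, fewer cells of a type and less RNA per cell cannot be told apart.

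With tumor DNA in wild-type cells, 8 of the 27 adhesion genes tested rose and 1 fell. Vcam1, Icam1, Cd47 and Alcam rose among the cell-to-cell adhesion molecules, Itgb1, Itga5, Itga2b and Itgb8 rose among the integrin chains, and Itgb5 fell. Over all genes tested 9.94% were called higher and 23.6% lower. The median of the 27 genes was 0.27 against -0.20 for all genes, and their differences ran from -2.04 to 3.75. Quantile normalization gave 8 higher and 0 lower, beside 1371 higher and 2207 lower of 12593 genes. Centring on the median of the genes tested gave 15 higher and 0 lower, beside 2759 and 1080 of 12586 genes. Between the knockout and wild type, both with DNA, 6 of the 27 genes were lower in the knockout and 1 was higher. Vcam1, Icam1, Cd47, Itgb1, Itga5 and Itga2b were the lower ones, and Itgb7 was the higher one. Over all genes 9.73% were called lower and 21.8% higher, and the median was -0.16 for the 27 genes against 0.20 for all. Quantile normalization gave 5 lower and 0 higher here, beside 1361 lower and 2140 higher of 12593 genes. The centring gave 10 lower and 0 higher, beside 2492 and 1092 of 12586 genes. Both comparisons use the same wild-type arrays with DNA, so each gene's values are given side by side below and are not independent of each other. For the knockout with DNA against wild-type media limma called 0 of the 27 genes, where 0.167% of all genes were called higher and 0.262% lower. At an unadjusted p below 0.05 this comparison held 2 of the 27, Alcam and Itgav, and 948 of all 12586 genes, 7.53%.

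**Figure D1:**
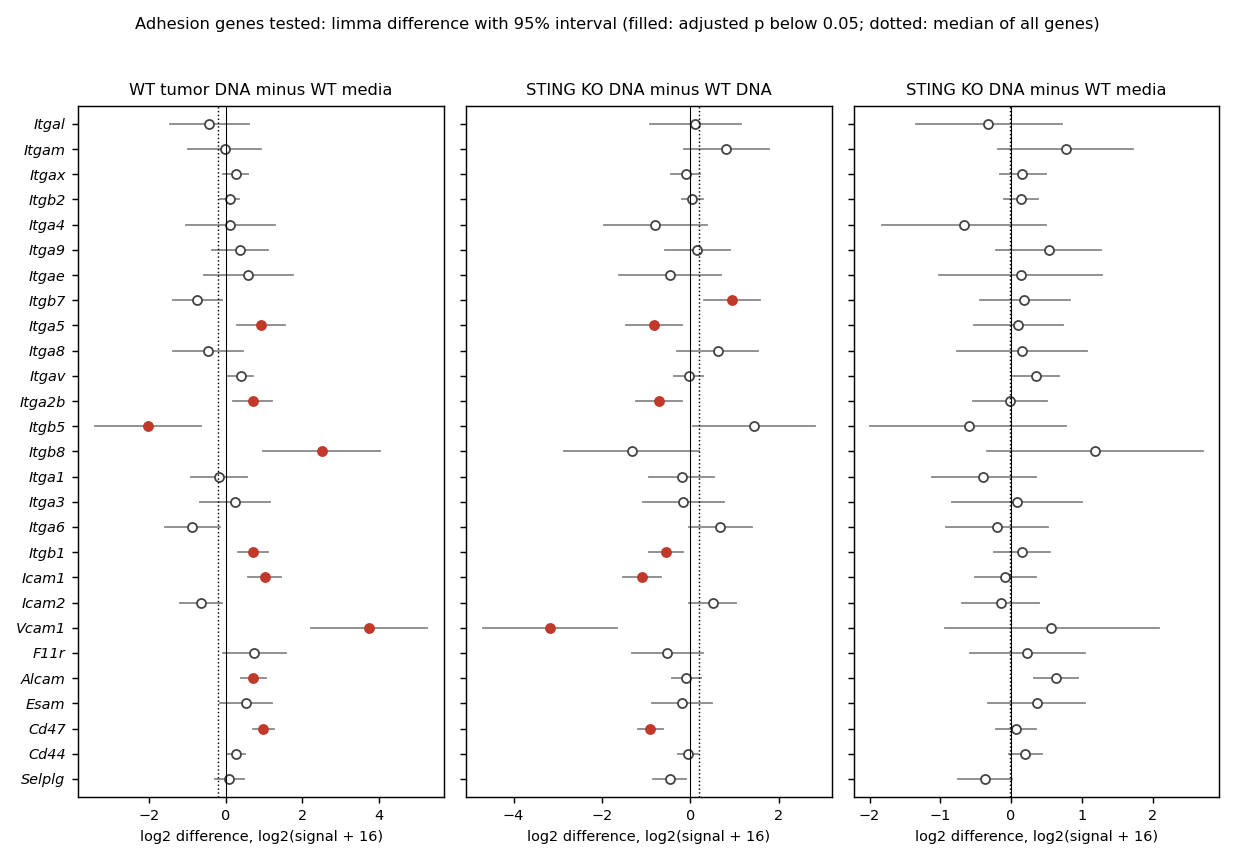
Log2 difference of signal + 16 with its 95% limma interval for the 27 adhesion genes tested, in the 3 comparisons, with filled points where the adjusted p was below 0.05 and a dotted line at the median of all genes. Vcam1 stands at 3.75 with DNA and at -3.18 in the knockout under DNA, and no point is filled in the comparison of knockout with DNA against wild-type media.

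Vcam1 encodes the immunoglobulin-fold receptor for alpha 4 integrins. It read 243, 61.4 and 35.9 signal units in media, 3598, 607 and 1118 in wild type with DNA, and 170.1, 102 and 139 in the knockout with DNA. All 3 wild-type arrays with DNA lay above the other 6, and array 1 was the highest of its group in each. The difference with DNA was 3.75 ± 0.68 (limma adjusted p = 0.0031), 13.5-fold on the signal + 16 scale. Within numbers 1, 2 and 3 it was 3.80, 3.01 and 4.45. In the knockout Vcam1 was lower than in wild type with DNA, by a difference of -3.18 ± 0.68 (limma adjusted p = 0.0062). Against media the knockout differed by 0.57 ± 0.68 (adjusted p = 0.95). Both calls were lost only when all arrays of number 3 were left out (adjusted p = 0.059 and 0.064, differences 3.41 and -3.34). Of 2 other Vcam1 probe sets, 1415989_at gave 2.71 and -2.33 without overlap, and 1451314_a_at gave 1.96 and -1.75 with overlap, the latter not called (adjusted p = 0.071 over all probe sets). Vcam1 is also carried by endothelial and stromal cells. Of 10 markers of those cells 8 were tested and Tek and Dcn lay under the limit, and their summed signal was 2111 to 8560 in media, 6611 to 9882 in wild type with DNA and 2345 to 9277 in the knockout. Among them Kdr, the VEGF receptor 2 gene, rose with DNA (3.35 ± 0.60, limma adjusted p = 0.0031) and was lower in the knockout (-4.26 ± 0.60). Kdr was the 1 gene of the 8 called in these comparisons. The median of the 8 was 0.14 with DNA and 0.55 in the knockout under DNA, with 7 and 5 differences positive. Col1a2, a collagen chain, read 3819, 417 and 307 in media, 3112, 515 and 361 with DNA and 4444, 453 and 2370.2 in the knockout. The part of such cells in the Vcam1 result was not tested.

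Icam1 encodes the ligand of the beta 2 integrins. Its signals were 4188, 5001 and 5389 in media, 12166, 8391 and 9223 in wild type with DNA, and 5809, 3789.8 and 4335 in the knockout. Every wild-type array with DNA was above all the others, while media and knockout overlapped. The gene rose by 1.02 ± 0.19 with DNA (limma adjusted p = 0.0039) and was lower in the knockout by a difference of -1.10 ± 0.19 (limma adjusted p = 0.0025). Knockout and media differed by -0.08 ± 0.19 (adjusted p = 0.98). Leaving out number 3 put the adjusted p at 0.050 and 0.056. The promoter of Icam1 is printed because this gene stood apart in all 3 wild-type arrays with DNA. It is RefSeq sequence on GRCm38.p6, chr9:21015690-21015989 on the plus strand, from 250 bases before to 50 after the transcription start, with capitals at matches to a kB-like motif (GGNNNTTCC, the kind of site NF-kB proteins bind) or a GAS-like motif (TTCNNNGAA, the kind STAT proteins bind), on either strand.
Icam1: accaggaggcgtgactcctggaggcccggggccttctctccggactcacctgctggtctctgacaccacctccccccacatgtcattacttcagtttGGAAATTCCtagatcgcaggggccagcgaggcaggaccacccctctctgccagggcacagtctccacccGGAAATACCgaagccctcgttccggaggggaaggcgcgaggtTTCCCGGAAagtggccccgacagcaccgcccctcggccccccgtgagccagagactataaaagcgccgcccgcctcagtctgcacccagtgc
The kB-like matches begin 153 bases before the start, where GGAAATTCC reads as a match on both strands, and 84 bases before it, where GGAAATACC matches on the minus strand. A GAS-like match begins 42 bases before the start. Of 32841 mouse promoter windows of this length 18.5% held a kB-like and 8.30% a GAS-like match. These matches describe the letters only.

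Cd47, the surface protein that binds thrombospondin and the SIRP-alpha receptor, read 9991, 8520.4 and 8117 in media, 18958, 17552 and 15974 in wild type with DNA, and 10243, 8463 and 9181 in the knockout. The groups did not overlap between wild type with DNA and either of the others. It rose by 0.98 ± 0.12 (limma adjusted p = 0.00071) and was lower in the knockout by a difference of -0.91 ± 0.12 (limma adjusted p = 0.00077), while knockout and media differed by 0.07 ± 0.12 (adjusted p = 0.98). Both calls were made with this probe set under every planned and added setting, left-out arrays included. Its 4 other probe sets differed by 0.53, 0.77, 0.80 and 1.0 with DNA and by -0.78 to -0.59 between knockout and wild type, and each had all 3 wild-type arrays with DNA above the media arrays and above the knockout arrays. Of these 4, adjusted over all probe sets, 1428187_at and 1430997_at were called in both comparisons, 1419554_at with DNA (adjusted p = 0.050 when rounded, just under the threshold) and 1459908_at in neither.

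Alcam, whose product CD166 binds CD6 on T cells, read 3451, 4062 and 4729.8 in media, 6322, 6341 and 7488 in wild type with DNA, and 5912, 6457 and 6509 in the knockout with DNA. Media arrays lay below all 6 arrays with DNA, and the knockout overlapped wild type with DNA. Alcam rose by 0.72 ± 0.14 in wild type (limma adjusted p = 0.0043). Knockout and wild type with DNA differed by -0.09 ± 0.14 (adjusted p = 0.67), with a 95% interval from -0.41 to 0.23, but after centring on the median of the genes tested Alcam was called lower in the knockout (-0.49, adjusted p = 0.044). The knockout with DNA was above wild-type media by 0.63 ± 0.14, with an adjusted p of 0.13 that became 0.024 with the replicate number as a block. The probe sets disagree on the difference with DNA and on that between knockout and wild type with DNA. The other 4 gave 0.55, 0.31, -0.19 and 0.46 with DNA, the mean of all 5 ended the call (0.37, adjusted p = 0.079), and 1437466_at was higher in the knockout than in wild type with DNA (2155, 1726 and 2393 against 1548, 1118 and 1008, a difference of 0.78, adjusted p = 0.019 over all probe sets). On that probe set, and on 1437467_at (a difference of 0.32, not called), the knockout arrays were above all 6 wild-type arrays. The remaining probe sets, 1426301_at and 1443086_at, gave 0.10 and -0.03 there. For the knockout with DNA against media the other 4 probe sets gave 0.65, 0.63, 0.58 and 0.43, none called.

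**Figure D2:**
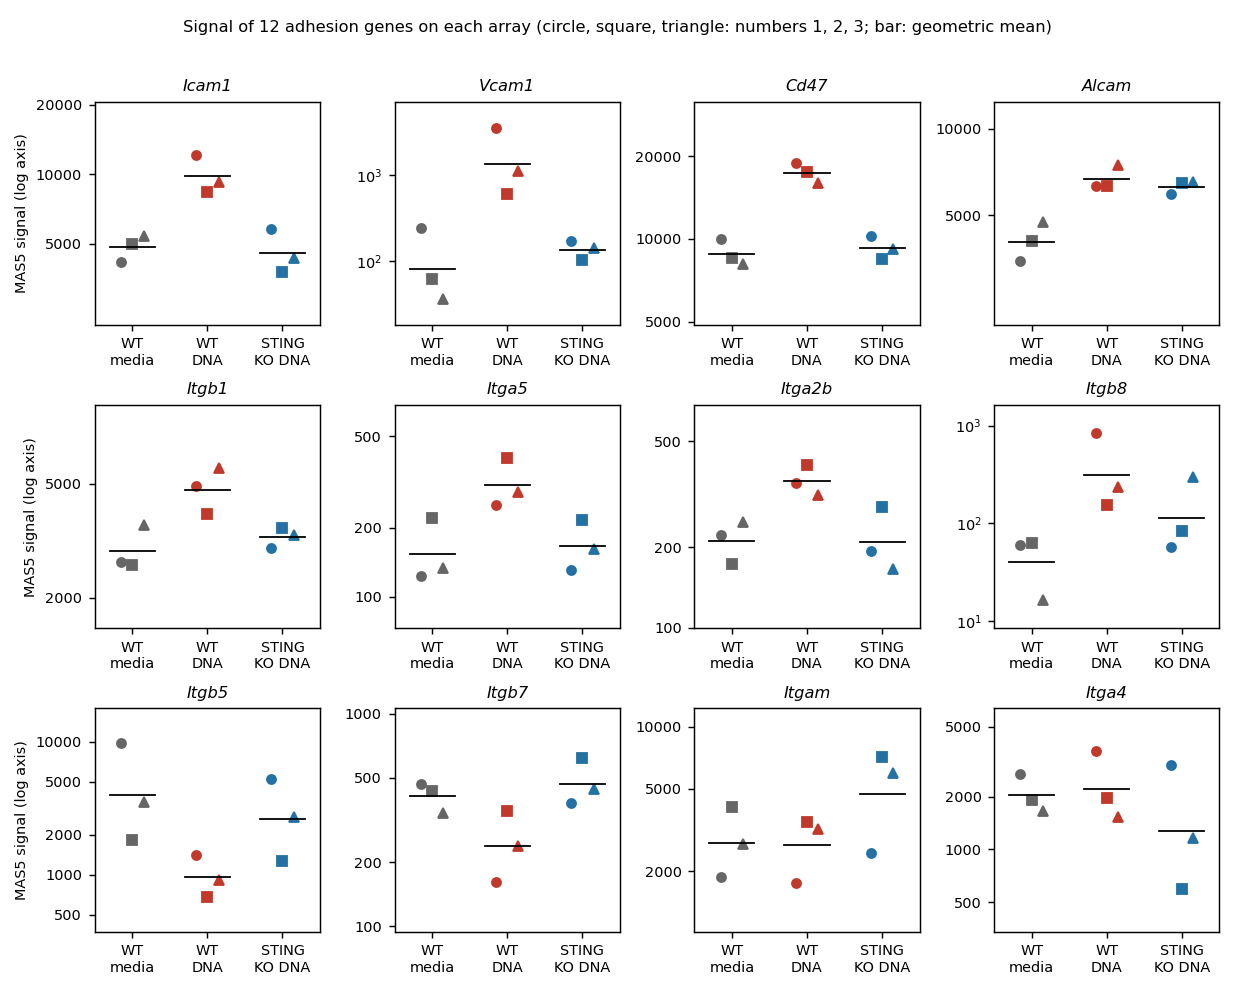
MAS5 signal (log axis) of 12 adhesion genes on each array, by group, with a circle, square and triangle for the arrays numbered 1, 2 and 3 and a bar at the geometric mean. In Vcam1, Icam1 and Cd47 the 3 wild-type arrays with DNA lie above the other 6, in Alcam all 6 arrays with DNA lie above media, and in Itgb5 array 1 is the highest of each group.

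None of the other immunoglobulin-fold genes, Cd44 or Selplg was called in the fit over all arrays without the block. Icam2, a second ligand of alpha L beta 2, read 155, 237 and 162 in media, 109, 121 and 102 in wild type with DNA and 217, 139 and 142 in the knockout. The wild-type arrays with DNA were the lowest 3 of the 9, with differences of -0.64 ± 0.24 (limma adjusted p = 0.067) and 0.50 (adjusted p = 0.15). F11r, the junctional adhesion molecule A gene, read 423, 431 and 897 in media, 547, 1123 and 1329 with DNA and 585, 755 and 610.5 in the knockout, and its groups overlapped. It differed by 0.75 ± 0.36 with DNA (adjusted p = 0.14, 0.045 with the block). Esam, an endothelial and platelet junction molecule, read 33.9, 56.8 and 53.1 in media and 85.5, 83.7 and 60.8 with DNA, without overlap, and differed by 0.54 ± 0.30 (adjusted p = 0.20). The hyaluronan receptor gene Cd44 read 12849, 13232 and 13885 in media, 16233, 14587 and 17088 with DNA and 15314, 14076 and 16734 in the knockout. Both sets of arrays with DNA were above the media arrays, with differences of 0.26 ± 0.11 (adjusted p = 0.088, 0.034 with the block) in wild type and 0.20 for knockout against media. The average over all its probe sets (0.40, adjusted p = 0.034), the probe set 1452483_a_at (0.77, adjusted p = 0.038 over all probe sets) and centring on the median of the genes tested (0.69, adjusted p = 0.0055) called Cd44 higher with DNA, and the centring called it lower in the knockout under DNA (-0.45, adjusted p = 0.036). Selplg, which encodes the P-selectin ligand PSGL-1, read 5259, 4622 and 5149 in media, 4234, 6300 and 5712 in wild type with DNA and 4448, 3857 and 3353 in the knockout, with overlap, a difference of -0.47 ± 0.17 (adjusted p = 0.063). The knockout lay below all media arrays, by a difference of -0.37 (adjusted p = 0.67). The difference from wild type with DNA was called without number 1 (-0.74, adjusted p = 0.011), without array 1 of wild type with DNA (-0.63, adjusted p = 0.017), without knockout array 1 (-0.57, adjusted p = 0.049) and after the centring (-0.86, adjusted p = 0.003). The centring also called Selplg (0.53), Esam (0.98) and F11r (1.19) higher with DNA, and F11r was called there without array 1 of that group (1.13) or media array 3 (1.10) and for the mean of its probe sets (0.69).

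Among the 18 integrin chains tested, 4 rose with DNA (22.2%, against 9.94% of all genes) and 1 fell (5.56%, against 23.6%). In the knockout under DNA 3 were lower (16.7%, against 9.73%) and 1 was higher (5.56%, against 21.8%). Itgb1, the beta 1 chain shared by many matrix receptors, read 2670.2, 2605 and 3585 in media, 4888, 3924 and 5646 in wild type with DNA, and 2982, 3489.7 and 3308 in the knockout. Wild-type arrays with DNA were above the rest. It rose by 0.70 ± 0.18 (limma adjusted p = 0.013) and was lower in the knockout by a difference of -0.55 ± 0.18 (limma adjusted p = 0.038). The probe set 1452545_a_at, of similar signal, gave 0.72 and -0.52 with no overlap either. The rise was no longer called without number 1 (0.62, adjusted p = 0.087), without number 3 (0.73, adjusted p = 0.062) or for the average over all 6 of its probe sets (0.39, adjusted p = 0.15), and 3 of those 6 lie under the low-signal limit. The knockout difference lost its call in quantile normalization (-0.45, adjusted p = 0.084) and in centring on the median of all probe sets (-0.55, adjusted p = 0.06). It was also lost with no variance trend and in the mean of probe sets (-0.15, adjusted p = 0.58). The same held without knockout array 1, 2 or 3, array 1 or 3 of wild type with DNA, or number 1, 2 or 3 (adjusted p up to 0.19). Centring on the median of the genes tested, a separate setting, kept the call (-0.95, adjusted p = 0.0067).

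Itga5, the alpha chain that with beta 1 forms the fibronectin receptor, was dimmer. It read 123, 221 and 133 in media, 252, 404 and 286 in wild type with DNA, and 131, 217 and 161 in the knockout. Wild type with DNA was above the others on every array, with array 2 the highest of each group. The gene rose by 0.93 ± 0.28 (limma adjusted p = 0.030) and was lower in the knockout by a difference of -0.83 ± 0.28 (limma adjusted p = 0.048). Its 3 other probe sets differed with DNA by 0.03 to 0.21, and by -0.24, 0.01 and -0.84 between knockout and wild type with DNA, none called. The last value is from 1423268_at, where the knockout read 38.6, 52 and 23.6, below all 6 wild-type arrays, with a difference of -0.81 from media. The rise was not called without media array 1 or 3, DNA array 2 or 3, or number 1 or 3 (adjusted p up to 0.20), and the knockout call ended without any single array other than media 2 and knockout 2 or without any number, with an adjusted p of up to 0.22. Without the low-signal filter and for the average over its probe sets neither was called (adjusted p up to 0.37 and 0.18), and the knockout call also ended with 1 added in place of 16 or with no variance trend.

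Itga2b, the platelet chain alpha IIb, read 222, 173 and 248 in media, 348, 408 and 315 in wild type with DNA, and 194, 284 and 166 in the knockout. Wild type with DNA was above all other arrays. It rose by 0.70 ± 0.23 (limma adjusted p = 0.043) and was lower in the knockout by a difference of -0.71 ± 0.23 (limma adjusted p = 0.041). The rise lost its call without any 1 array of wild type, without knockout array 1 or without any number (adjusted p up to 0.21), and the knockout call without any single array but media 2 and knockout 2 or without any number (up to 0.20). Without the low-signal filter the adjusted p was up to 0.073 for the rise, and the knockout call also ended in a fit of the 2 groups alone (up to 0.072). Of 10 platelet markers 8 were tested and their summed signal was 40265 to 45149 in media, 37085 to 46374 in wild type with DNA and 33633 to 44908 in the knockout. Among them Gp6, the platelet collagen receptor gene, rose with DNA (1.63 ± 0.18) and was lower in the knockout (-2.17 ± 0.18), while Treml1 fell with DNA (-1.93 ± 0.47) and was higher in the knockout (1.49 ± 0.47), and Vwf fell with DNA (-1.12 ± 0.32), each with a limma adjusted p below 0.05. The sum of mast cell and basophil markers, cells that can also carry this chain early in their growth, was 804 to 1728, 1829 to 4005 and 501 to 821. Of these 11 markers 8 were tested, Mcpt4, Tpsb2 and Cma1 lay under the limit, 1 rose with DNA (Hdc, 4.14) and 4 were lower in the knockout (Hdc, Fcer1a, Cpa3 and Mcpt8). Their part in the Itga2b result was not tested.

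The promoter windows of these 3 integrin genes are printed because each was called in both comparisons. They are RefSeq sequences on GRCm38.p6, 5' to 3' on the gene's own strand, for Itgb1 chr8:128685404-128685703 on the plus strand, for Itga5 chr15:103366742-103367041 on the minus strand and for Itga2b chr11:102469834-102470133 on the minus strand. Capitals mark a kB-like match in Itgb1 and Itga5 and an ISRE-like match (GAAA, any 2 bases, GAAA, the kind interferon regulatory factors bind) in Itga2b.
Itgb1: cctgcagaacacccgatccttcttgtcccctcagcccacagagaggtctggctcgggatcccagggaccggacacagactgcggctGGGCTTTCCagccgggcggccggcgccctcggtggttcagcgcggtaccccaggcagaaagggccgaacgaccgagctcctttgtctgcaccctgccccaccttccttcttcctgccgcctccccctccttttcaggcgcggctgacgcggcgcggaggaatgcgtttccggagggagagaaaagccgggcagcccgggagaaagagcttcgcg
Itga5: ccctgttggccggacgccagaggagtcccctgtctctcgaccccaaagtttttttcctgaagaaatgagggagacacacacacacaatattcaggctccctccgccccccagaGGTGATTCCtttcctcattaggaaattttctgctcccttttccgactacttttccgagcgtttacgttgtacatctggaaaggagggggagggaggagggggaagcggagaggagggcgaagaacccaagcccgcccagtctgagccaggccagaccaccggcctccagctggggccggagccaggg
Itga2b: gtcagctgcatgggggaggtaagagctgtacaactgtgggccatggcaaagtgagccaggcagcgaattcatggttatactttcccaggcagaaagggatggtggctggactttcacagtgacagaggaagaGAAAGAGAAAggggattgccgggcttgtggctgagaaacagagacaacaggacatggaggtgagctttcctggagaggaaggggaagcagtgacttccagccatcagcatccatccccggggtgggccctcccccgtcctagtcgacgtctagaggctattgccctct
The kB-like matches are GGGCTTTCC, 164 bases before the start of Itgb1, and GGTGATTCC, 137 bases before that of Itga5. The ISRE-like match in Itga2b, GAAAGAGAAA, begins 118 bases before the start, and 3.44% of all windows held such a match. RefSeq windows were at hand for 21 of the 34 genes, 24 windows in all, of which 5 held a kB-like match (20.8%), 2 an ISRE-like match (8.33%) and 1 a GAS-like match (4.17%). A PU-box (GAGGAA, bound by the myeloid factor PU.1), searched on both strands, was in 11 of the 24 windows (45.8%) against 28.3% of all windows, and Itgam held 3 of them. In the windows of Cd47, Itgb5, Itgb8 and Itgax none of these 4 motifs was found, which says only that these letters are not there.

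Itgb8, whose product with alpha V binds latent TGF-beta, read 60.4, 63.5 and 16.4 in media, 836, 153 and 236 in wild type with DNA, and 57.9, 84.1 and 297 in the knockout. Wild type with DNA was above media on every array, and the knockout overlapped both. It rose by 2.51 ± 0.68 (limma adjusted p = 0.019), 5.69-fold on this scale, with 3.48 within number 1 and 1.09 within number 2. The knockout differed from wild type with DNA by -1.32 ± 0.68 (adjusted p = 0.17). Leaving out array 1 of wild type with DNA ended the call (1.83, adjusted p = 0.065), as did leaving out media array 3 (2.09, adjusted p = 0.067), number 1 (2.02, adjusted p = 0.057) or number 3 (2.28, adjusted p = 0.084).

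Itgb5, the beta 5 chain that pairs with alpha V to bind vitronectin, was the 1 adhesion gene that fell. It read 9719, 1833 and 3513 in media, 1394, 679 and 917 in wild type with DNA, and 5192, 1265 and 2713 in the knockout. Wild type with DNA was below all media arrays, and the knockout overlapped both groups. Within each group array 1 was the highest and array 2 the lowest. The difference with DNA was -2.04 ± 0.62 (limma adjusted p = 0.030), and within numbers 1 and 2 it was -2.79 and -1.41. With the replicate number as a block its adjusted p was 0.00026. The knockout was above wild type with DNA by 1.44 ± 0.62, with an adjusted p of 0.11 that became 0.0011 with the block. This difference was also called without knockout array 2 (limma adjusted p = 0.049). The fall was not called after quantile normalization (-1.96, adjusted p = 0.050), after centring on the median of the genes tested (-1.61, adjusted p = 0.081), without media array 1 (-1.40, adjusted p = 0.091) or 3, without DNA array 2 or 3, or without number 3 (adjusted p up to 0.18). Its 3 other probe sets gave -1.83, -2.10 and -2.37, each with wild type with DNA below all media arrays. On 1456133_x_at all knockout arrays lay above wild type with DNA (a difference of 1.29, limma adjusted p over all probe sets 0.16), and on the rest they overlapped. Col1a2, given above with Vcam1, was likewise highest in array 1 of each group, and its part here was not tested.

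Itgav, the alpha V chain, read 3335, 2527 and 2866 in media, 3951, 3573 and 3855 in wild type with DNA, and 3654, 3302 and 4202 in the knockout. Media lay below all wild-type arrays with DNA, and knockout and wild type with DNA overlapped. It differed by 0.39 ± 0.15 with DNA (adjusted p = 0.067, 0.023 with the block, 0.0056 with a difference of 0.82 after centring on the median of the genes tested) and by -0.03 between knockout and wild type (adjusted p = 0.88). A dimmer Itgav probe set, 1421198_at, gave another picture. It read 98.2, 71.1 and 82.5 in media, 218, 206 and 245 in wild type with DNA, and 101, 117 and 137 in the knockout, with differences of 1.26 (limma adjusted p over all probe sets 0.0061) and -0.83 (0.042). Itga8, a further RGD-binding chain, differed by -0.47 with DNA and by 0.62 in the knockout, and neither was called.

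The leukocyte integrins were not called in any comparison in the fit over all arrays without the block or another centring. Itgax, the CD11c gene, read 4108, 5939 and 5208 in media, 6174, 6094 and 5885 in wild type with DNA, and 5267, 6085 and 5557 in the knockout. It differed by 0.27 ± 0.15 (adjusted p = 0.19) and -0.10 (adjusted p = 0.62), and the groups overlapped. Itgb2, the common beta 2 chain, stayed between 14637 and 18272 on all 9 arrays and differed by 0.10 ± 0.11 (adjusted p = 0.50). Centring on the median of the genes tested gave 0.70 for Itgax (adjusted p = 0.010) and 0.53 for Itgb2 (adjusted p = 0.0096), both called with DNA, and -0.50 for Itgax in the knockout under DNA (adjusted p = 0.041), also called. Itgal, the LFA-1 alpha chain, read 7598, 3608 and 3087 in media, 5914, 3039 and 1928 with DNA, and 5721, 2851 and 2679 in the knockout. It was highest in array 1 of each group, and its difference of -0.43 ± 0.46 with DNA (adjusted p = 0.51) was called with the block (0.026). Itgam, the CD11b gene, read 1876, 4074 and 2710.1 in media, 1745, 3452 and 3209.8 in wild type with DNA, and 2440.2, 7158 and 5979 in the knockout. Within every number the knockout was the highest of the 3, and the difference from wild type with DNA was 0.81 ± 0.43, with an adjusted p of 0.18 that became 0.0031 with the block. Without the block, Itgam was called higher in the knockout without knockout array 1 (1.28, limma adjusted p = 0.027) and without number 1 (0.97, limma adjusted p = 0.016). Against media the knockout was called, of all settings run, only with the block and number 1 left out (0.97, adjusted p = 0.026). CD11b is carried by macrophages and neutrophils too. The summed signal of 10 neutrophil markers was 40810 to 88187 in media, 36890 to 100149 with DNA and 50693 to 53987 in the knockout, with 1 called lower in each of the first 2 comparisons. That of 8 macrophage markers was 74169 to 91371, 97284 to 116496 and 72375 to 89636, with 3 higher and 1 lower with DNA and 3 lower and 1 higher in the knockout under DNA. Their part in the Itgam values was not tested. No probe set carried the single symbol Itgad.

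Itgb7, the chain that pairs with alpha 4 or alpha E for homing to the gut, was the 1 gene higher in the knockout. It read 465, 431 and 341 in media, 161, 348 and 239 in wild type with DNA, and 378, 618 and 441 in the knockout. The knockout lay above wild type with DNA on every array, by 0.93 ± 0.28 (limma adjusted p = 0.032), and overlapped media. With DNA the gene differed by -0.74 ± 0.28, with an adjusted p of 0.071 that became 0.023 with the block. It was also called lower with DNA after centring on the median of all probe sets and without DNA array 2 (limma adjusted p = 0.023). The knockout call was lost under quantile normalization, in a fit of the 2 groups alone, without DNA array 1 or 3, knockout array 2 or 3 or any 1 number (adjusted p up to 0.17), and under centring on the median of the genes tested (0.53, adjusted p = 0.13). Itgae, the alpha E chain, differed by 0.59 with DNA (adjusted p = 0.41), and Itga9, a near relative of alpha 4, by 0.37. Neither was called in any comparison in the fit over all arrays. Within numbers 1, 2 and 3 Itgae differed by -0.50, 1.49 and 0.79 with DNA. It was called higher with DNA without number 1 (1.14, limma adjusted p = 0.046, or 0.027 with the block).

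For Itga4, the alpha 4 chain that binds VCAM-1, the probe sets split. The probe set that stood for the gene read 2699.9, 1916 and 1649.6 in media, 3636, 1970.5 and 1521 in wild type with DNA, and 3033, 594 and 1156 in the knockout, and the groups overlapped. The knockout differed from wild type with DNA by -0.79 ± 0.52 (adjusted p = 0.28). It was called lower in the knockout without knockout array 1 (-1.40, adjusted p = 0.029), without number 1 (-1.05, adjusted p = 0.046) and for the mean of the probe sets (-1.28, adjusted p = 0.026). The probe set 1456498_at read 1966, 1722 and 1526 in media, 2283, 2159 and 1532 in wild type with DNA, and 565, 275 and 237 in the knockout. All 3 knockout arrays were below all 6 wild-type arrays. Whether its probes match the knockout's sequence as they match the wild type's was not tested, so the values are signal on this probe set. Its difference was -2.50 from wild type with DNA (limma adjusted p over all probe sets 0.00042) and -2.32 from media (0.0083), while wild type with and without DNA differed by 0.18 (0.76). The 3 other Itga4 probe sets differed by -1.28, -0.94 and -0.89 between knockout and wild type with DNA, none called.

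**Figure D3:**
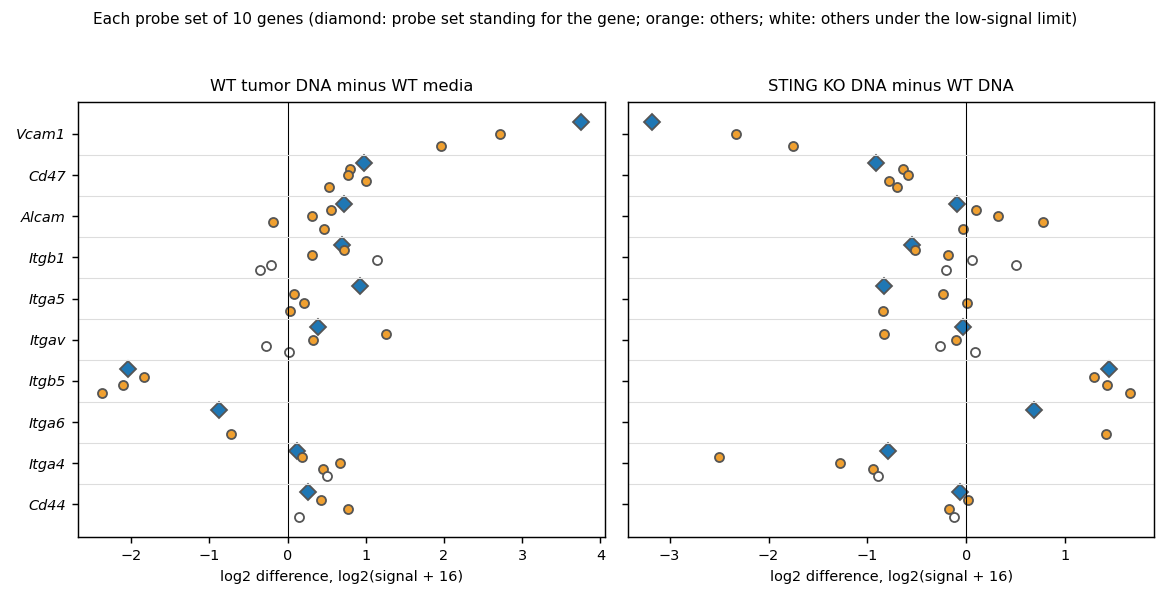
Log2 difference of signal + 16 for every probe set of 10 adhesion genes, with a diamond for the probe set that stood for the gene, orange circles for the others and white circles for others under the low-signal limit. All 5 Cd47 probe sets lie on 1 side in each panel, while for Itga4 a probe set stands at -2.50 in the knockout and for Alcam a probe set stands at 0.78.

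Of the collagen and laminin receptor chains, Itga6 read 1445, 723 and 833 in media, 447, 562 and 539 in wild type with DNA, and 1244, 543 and 844 in the knockout. Wild type with DNA was below all media arrays and overlapped the knockout. It differed by -0.88 ± 0.32 (adjusted p = 0.062, 0.023 with the block) and by 0.68 (adjusted p = 0.14). Itga6 was also called lower with DNA in a fit of the 2 groups alone (limma adjusted p = 0.045) and without knockout array 1 (0.038) or 2 (0.04). The mean of its probe sets was called higher in the knockout than in wild type with DNA (1.05, limma adjusted p = 0.043). Its other probe set, 1422444_at, differed by 1.41 between knockout and wild type with DNA (limma adjusted p over all probe sets 0.024) and by -0.72 with DNA. Itga1 read 1032, 1487 and 1115 in media, 706, 1340 and 1228 with DNA, and 577, 1360 and 959 in the knockout, with overlap throughout. Itga3 differed by 0.24 with DNA and -0.16 in the knockout, and was not called. The 6 genes under the low-signal limit of 34.8 signal units, set as the 40th percentile of mean log2 signal, were Itga2, Itga7, Itgb3, Itgb4, Itgb6 and the endothelial and platelet gene Pecam1. None of their probe sets read above 60.5 on any array, and they were not tested in the fit over genes.

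The genes that act on or with integrins were counted from 3 lists. Of 42 genes of integrin activation and the adhesion complex 35 were tested, and 6 rose (17.1%, against 9.94% of all genes) and 2 fell (5.71%, against 23.6%) with DNA, with a median of 0.05 against -0.20 for all genes. In the knockout under DNA 6 were lower (17.1%, against 9.73%) and 2 higher (5.71%, against 21.8%), with a median of -0.07 against 0.20. Rapgef2, an exchange factor that switches on Rap GTPases, read 3180.2, 2930 and 2951 in media, 18369, 13878 and 13312 in wild type with DNA, and 4158, 2767 and 3439.9 in the knockout. Wild type with DNA stood clear of both other groups, with differences of 2.31 ± 0.17 (limma adjusted p = 9.5e-05) and -2.13 ± 0.17 (limma adjusted p = 7.4e-05). Rap1b, a small GTPase that brings talin to integrins, differed by 0.47 ± 0.10 and -0.46 ± 0.10 (limma adjusted p = 0.0051 and 0.0056). Zyx, the focal adhesion protein zyxin, rose by 1.57 ± 0.32 (limma adjusted p = 0.0054) from 1148, 2666 and 2191 to 4169, 7201 and 5915, and read 1603, 2566 and 2191 in the knockout. Src, a kinase of adhesion sites, was lower in the knockout than in wild type with DNA by a difference of -1.01 ± 0.20 (limma adjusted p = 0.0041).

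Of 27 ligands and counter-receptors 18 were tested. Thbs1, thrombospondin 1, a ligand of CD47, rose with DNA by 0.40 ± 0.10 (limma adjusted p = 0.011) and was the 1 called. Its signals were 16819, 15806 and 17499 in media, 22140, 21339 and 22422 in wild type with DNA, and 17542, 18790 and 20471 in the knockout. Jam2, junctional adhesion molecule B, was the 1 lower in the knockout (-1.75 ± 0.58, limma adjusted p = 0.045), where it read 28.1, 292 and 208 against 456, 474 and 484 in wild type with DNA. The 1 gene is 5.56% of the list in each case, against 9.94% of all genes higher with DNA and 9.73% lower in the knockout, and 0 were called the other way. The medians of this list were 0.11 and 0.15.

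Of 22 tetraspanins and other partners 21 were tested, and 4 rose (19.0%, against 9.94% of all genes) and 3 fell (14.3%, against 23.6%) with DNA, with a median of -0.04. In the knockout under DNA 4 were higher (19.0%, against 21.8%) and 3 lower (14.3%, against 9.73%), with a median of 0.19. Tspan32, a tetraspanin of blood cells, read 1021, 1186 and 839 in media, 113, 142 and 207 in wild type with DNA, and 972, 936 and 879 in the knockout. It fell by 2.62 ± 0.22 (limma adjusted p = 0.00019) and was higher in the knockout by 2.51 ± 0.22 (limma adjusted p = 0.0001). Sdc4, syndecan 4, a proteoglycan that acts beside alpha 5 beta 1 on fibronectin, read 4245, 4332 and 7558 in media, 19567, 10111 and 14594 in wild type with DNA, and 5304, 3603 and 6156 in the knockout. The wild-type arrays with DNA were the highest 3, with differences of 1.46 ± 0.30 (limma adjusted p = 0.0057) and -1.54 ± 0.30 (limma adjusted p = 0.0042). Slc3a2, the CD98 heavy chain that binds beta chains, rose by 0.85 ± 0.14 (limma adjusted p = 0.0018), and Cd81, a tetraspanin, was higher in the knockout by 0.88 ± 0.13 (limma adjusted p = 0.0012). Limma called 0 genes of these lists for knockout with DNA against media, with 2, 2 and 3 at an unadjusted p below 0.05.

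**Figure D4:**
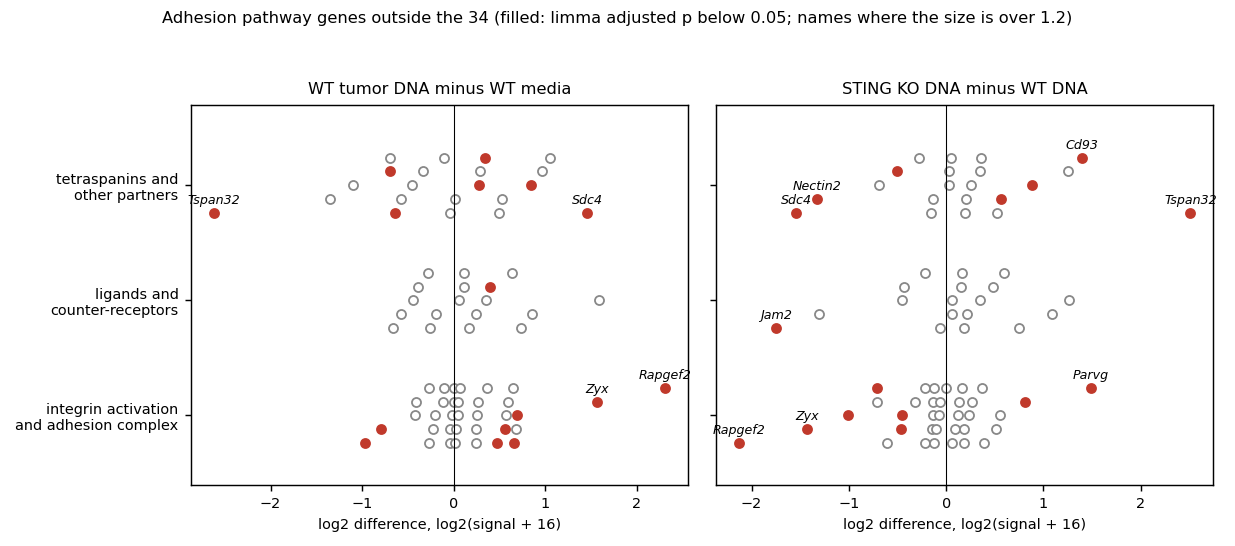
Log2 difference of signal + 16 for each tested gene of the 3 adhesion pathway lists, filled where limma's adjusted p was below 0.05 and named where called with a size over 1.2. Rapgef2 stands at 2.31 with DNA and Tspan32 at -2.62, while most genes of each list are open points near 0.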

How the data were processed

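The authors deposited 1 intensity per probe set and array, made with MAS5 per the submitters' processing notes. MAS5's version and any genome build were not given in the sources used here. Control probe sets (64 of 45101) were removed, 16 was added, log2 was taken, and probe sets above the 40th percentile of the mean over 9 arrays (5.67 in log2) were kept. Of 33 genes of the list matched to the RefSeq table, 0 changed symbol. Limma 3.58.1 in R 4.3.3 (lmFit, eBayes with trend) was fitted to all 9 arrays over 12586 genes, and probe sets were fitted separately, with Benjamini-Hochberg adjustment in each case. The fit was tested on simulated data. The number of arrays limits the precision.

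Residuals of arrays with the same title number correlated at 0.17 to 0.49 (9 pairs) and of different numbers at -0.42 to 0.14. The main fit left this pairing out, so its counts, SEs and adjusted p-values are unpaired. Another fit took the number as a block, and its value is given where it changes a call. The genes and lists were chosen with earlier results of these data known. Named are all 34 genes, with array values for those called or not overlapping, and in each pathway list the 3 called genes with the smallest adjusted p. T and NK cell, B cell and plasmacytoid lists had 4, 4 and 5 genes tested. Of these 1, 0 and 2 were called higher with DNA and 1, 0 and 2 lower in the knockout. The plasmacytoid sum was 5512.5 to 7921 in media, 19046 to 24707 in wild type with DNA and 3215 to 6963 in the knockout. Only Bst2 and Tcf4 were called in that list, in both comparisons, and its genes did not all move 1 way. The 5 genes tested differed by -0.68 to 1.85 with DNA and by -2.4 to 1.04 in the knockout under DNA. In the same order the T and NK cell sum was 148 to 211, 280.5 to 322 and 168 to 244. The B cell sum was 1317 to 3546, 1611 to 5350 and 1542 to 2814. Their part in the adhesion values was not tested.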

Additional observations from a re-analysis of the deposited data

How the results depend on the processing

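With the replicate number as a block 15 of the 27 adhesion genes were called with DNA (11 higher, 4 lower). Of all 12586 genes 5634 were called there (1663 higher, 3971 lower), against 4224 without the block. For knockout against wild type with DNA the block called 9 of the 27 (3 higher, 6 lower) and 5407 genes (3769 higher, 1638 lower). For the knockout against media it called 176 genes and 1 adhesion gene, Alcam. The block without the arrays numbered 1, added after seeing the data, gave 261 genes and 1 adhesion gene, Itgam, for the knockout against media, and a fit of the 2 groups alone gave 30 genes. Centring on the median of the genes tested, also added later, gave 15 adhesion genes and 3839 of all genes with DNA. Leaving out 1 array or 1 number gave 1492 to 4207 genes and 2 to 10 adhesion genes with DNA, 1379 to 3949 genes and 1 to 7 adhesion genes for knockout against wild type with DNA, and 4 to 131 genes and 0 adhesion genes for the knockout against media. The lowest values came without number 3, with 2 adhesion genes for DNA and 1 for the knockout. The Alcam probe set 1437466_at reversed the sign between knockout and wild type with DNA, to 0.78 from -0.09. The cause was not tested for any of these. For the adhesion genes and all settings and left-out arrays together, 37 calls were lost and 27 gained with DNA, 52 lost and 20 gained for knockout against wild type with DNA, and 0 lost and 2 gained (Alcam with the block, Itgam with the block and without number 1) for knockout against media. Among the other probe sets 11 lost and 2 gained the gene's call with DNA, and 10 and 3 in the knockout under DNA. These were adjusted over all probe sets without the filter, and the gene's call over 12586 genes, so the counts mix probe set and adjustment. Adjusted over all probe sets, the probe set that stood for Itga5 was not called either (limma adjusted p = 0.058 and 0.091). That of Itgb1 was not called in the knockout under DNA (limma adjusted p = 0.065). Media signals near the low-signal limit, as in Itgb8, leave the size of a rise dependent on the added 16.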
